A study of Mus musculus with 6 samples.

Results

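The urea cycle and the liver enzymes that break down amino acids were examined as 36 genes. They were chosen by name from a list, though with earlier results of these data known. All 36 were on the array by name, with 47 probes in 56 spots. All of them were well above background on each of the 6 arrays, so all 36 passed the filter on dim probes and stood among 17047 genes compared. Of the 36, 31 are enzymes and carriers of amino acid breakdown and the urea cycle, and 5 (Glul, Oat, Slc1a2, Rhbg and Lect2) are genes that hepatocytes around the central vein are known to express.

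The livers came from C57BL6/J mice, an inbred laboratory strain without a stated genetic change. In the treated group 3 mice were given 250 mg/kg of CBZ by mouth, a compound that the labels name only by these letters. In the control group 3 mice were given the solvent dimethyl sulfoxide (DMSO) by mouth, and all were killed after 2 h. Total RNA of each whole liver was hybridised to 1 single-colour Agilent array, and no age or sex is given in the sources used here. The 75th percentile of an array's processed intensity lay between 158 and 191 units, no spot was saturated, and precision is limited by having 3 arrays in each group. The 7 hepatocyte markers examined (Alb, Apoa1, Ttr, Serpina1a, Apoc3, Tf and Fgb) all passed the filter on dim probes. Whole liver holds other cells beside hepatocytes, and fewer cells of a type and less RNA per cell cannot be told apart.

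The urea cycle joins the nitrogen of ammonia and of aspartate into urea through a run of mitochondrial and cytosolic enzymes. In the liver lobule these enzymes are enriched in hepatocytes near the portal vein, where blood enters. Hepatocytes next to the central vein instead catch the remaining ammonia as glutamine through glutamine synthetase, and in laboratory animals the supply of many amino acid enzymes follows feeding, glucagon and glucocorticoids over hours.

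A signal below is the processed intensity of the gene's brightest probe as a multiple of the 75th percentile of its array. The probe sequence is what captures the labelled RNA, and probes differ in how well they do so, hence a signal is compared between mice and never between genes. The probes of 8 members that the results refer to are given here because they read the protein-coding part of their transcripts, across the urea cycle, the other enzymes and the pericentral genes. They are written in lower case from 5′ to 3′ as deposited, without capitals because the whole oligonucleotide is the detector, and their positions are those of the array design on mouse build mm9. Nags lies at chr11:102009515-102009574 and Cps1 at chr1:67276029-67276088, both on the plus strand. The Otc probe shown, the dimmer one of a pair and printed in 10 spots, spans a splice junction at chrX:9853843-9877490 on the plus strand. Arg1 lies at chr10:24636194-24636253 on the minus strand, and Sds at chr5:120933105-120933164 on the plus strand. The Gpt probe spans chr15:76529767-76529897 on the plus strand, and the Hpd probe chr5:123622237-123624360 on the minus strand. Slc1a2 lies at chr2:102617752-102617811 on the plus strand.
Nags: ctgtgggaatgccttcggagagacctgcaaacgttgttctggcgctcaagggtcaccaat
Cps1: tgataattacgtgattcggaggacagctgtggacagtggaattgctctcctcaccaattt
Otc: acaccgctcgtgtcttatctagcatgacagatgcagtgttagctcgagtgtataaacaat
Arg1: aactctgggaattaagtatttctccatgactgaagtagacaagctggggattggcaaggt
Sds: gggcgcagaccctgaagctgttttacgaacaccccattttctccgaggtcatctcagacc
Gpt: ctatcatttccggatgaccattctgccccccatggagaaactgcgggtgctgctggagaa
Hpd: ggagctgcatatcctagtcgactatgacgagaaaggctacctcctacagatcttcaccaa
Slc1a2: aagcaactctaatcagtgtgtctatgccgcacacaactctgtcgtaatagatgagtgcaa

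Setting CBZ livers beside DMSO livers asks which of these transcripts differed at 2 h. None of the 36 genes passed the test: 0 had an adjusted p under 0.05 in limma's moderated test, adjusted by Benjamini-Hochberg over every probe that passed the filter, where 0.0528% of all genes did. The lowest adjusted p in limma among the members was 0.524, for Nags, and it was above 0.9 for 25 members. At an unadjusted p under 0.05 there were 0 members higher in CBZ livers, against 5% of all genes, and 1 member lower, Nags, against 3.97% of all genes. The largest log2 fold changes, always CBZ minus DMSO, were -0.33 for Nags and 0.30 for Sds, and 17 of the 36 lay within 0.1 of 0.

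The intervals bound what these 6 mice could have hidden at each gene's brightest probe, under the scaling used here. They do not cover other probes, such as the second Sds probe, whose log2 fold change was 0.86 ± 0.28 (SE). The standard errors ran from 0.12 to 0.26, and for 24 members the standard error exceeded the fold change itself. The 95% confidence interval of each of the 36 members, unadjusted for the number of genes, lay within a 2-fold change in either direction. It lay within a 1.5-fold change for 31 of them, the others being Nags, Sds, Sdsl, Oat and Slc1a2.

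**Figure D1:**
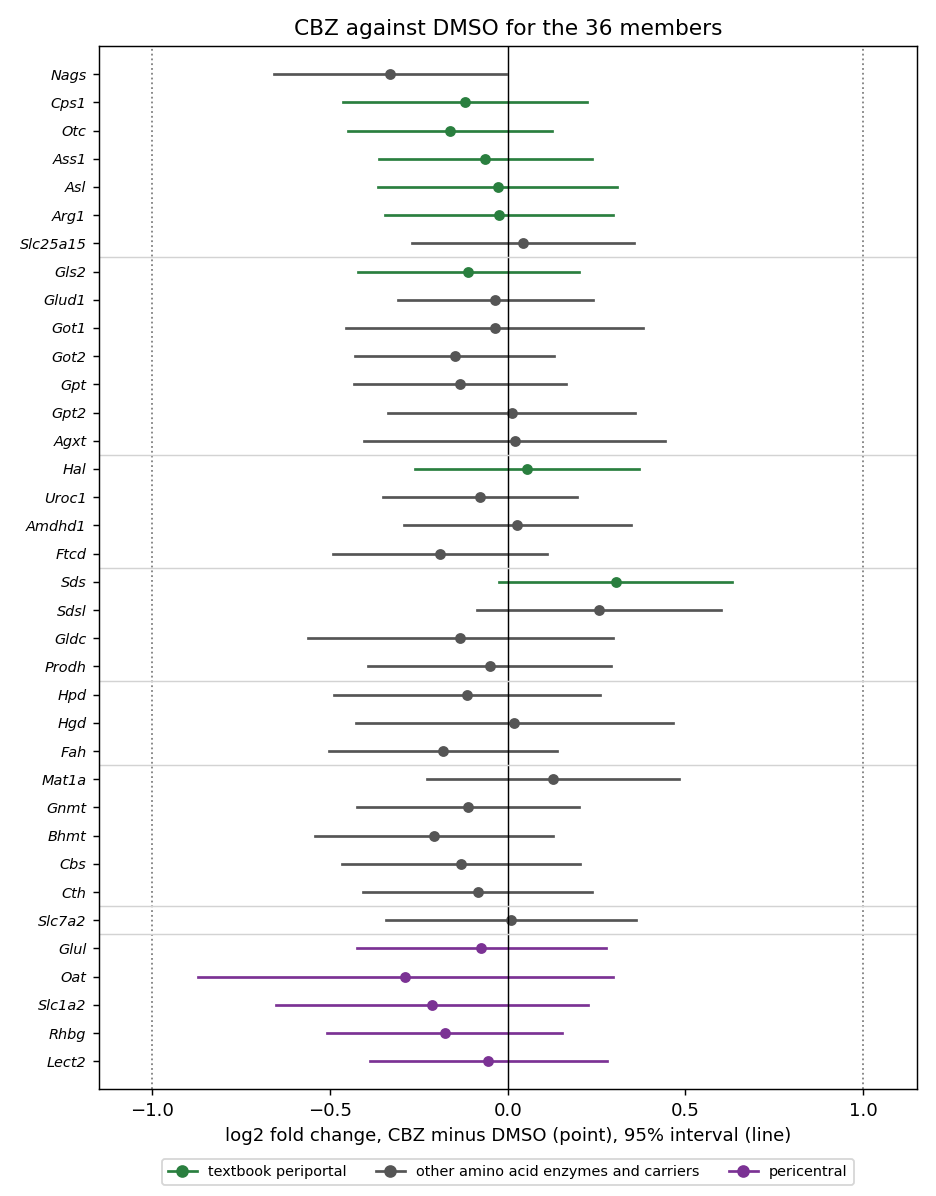
The horizontal axis is the log2 fold change, CBZ minus DMSO (n = 3 mice each), of each of the 36 genes down the page, grouped by role. Points are limma estimates for the brightest probe, lines their 95% intervals and dotted lines a 2-fold change, and no interval reaches a dotted line.

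The estimates were more often below 0 than above it, with 10 members higher and 26 lower in CBZ livers, where 49.1% of all genes were higher. The median log2 fold change of the 36 was -0.08, beside 0.00 for all genes tested, whose quartiles were -0.12 and 0.13. This split depended on single mice. Without CBZ replicate 3 there were 17 members higher and 19 lower, and without CBZ replicate 2 there were 4 higher and 32 lower. Without DMSO replicate 3 there were 6 higher and 30 lower, and array median scaling of all 6 mice gave 3 higher and 33 lower.

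Among the urea cycle genes 1 of 7 estimates was higher and 6 were lower, with a median of -0.06 and none past the test. Nags encodes N-acetylglutamate synthase, which makes the activator that Cps1 requires. Its signal was 19.9, 21.5 and 18.6 in CBZ livers, against 26.7, 27.6 and 21.6 in DMSO livers. Each CBZ mouse was below each DMSO mouse, and the lowest DMSO mouse was close to the highest CBZ mouse. The log2 fold change was -0.33 ± 0.14 (SE, n = 3 mice per group), with a 95% interval of -0.66 to -0.0061, an unadjusted p of 0.0467 and an adjusted p of 0.524 in limma.

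Cps1, the mitochondrial carbamoyl phosphate synthetase that starts the cycle, had signals of 129, 125 and 110 in CBZ livers, against 154, 128 and 116 in DMSO livers. The groups overlapped, and DMSO replicate 1 was highest (log2 fold change -0.12 ± 0.15 SE, n = 3 per group). Otc, the X-linked ornithine transcarbamylase that forms citrulline, had signals of 69.9, 78.2 and 74.0 in CBZ livers, against 87.9, 83.7 and 77.1 in DMSO livers. Its log2 fold change was -0.16 ± 0.13, with an adjusted p of 0.844 in limma, and CBZ replicate 2 lay above DMSO replicate 3. The coding probe of Otc shown above gave 34.19, 36.03 and 35.17 in CBZ livers, against 47.78, 43.56 and 30.51 in DMSO livers. Here DMSO replicate 3 was the lowest of all mice, and the log2 fold change was -0.18 ± 0.18.

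The cytosolic steps followed, with groups that overlapped for each gene. Ass1, which joins citrulline to aspartate, had signals of 1002, 1210 and 997.9 in CBZ livers, against 1121, 1106 and 1112 in DMSO livers. The DMSO mice lay close together and the CBZ mice on both sides of them, with a log2 fold change of -0.06 ± 0.13. Asl, which splits the product to arginine, had signals of 221, 225 and 186 in CBZ livers, against 235, 224 and 186 in DMSO livers. Arg1, the arginase that releases urea, had signals of 250, 269 and 218 in CBZ livers, against 276, 243 and 231 in DMSO livers. Both had a log2 fold change of -0.03, with SEs of 0.15 and 0.14, and their groups overlapped almost fully. Slc25a15, the carrier that brings ornithine back into the mitochondrion, averaged 2.44 ± 0.27 in CBZ livers and 2.37 ± 0.17 in DMSO livers (SD, n = 3 each), with a log2 fold change of 0.04 ± 0.14.

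**Figure D2:**
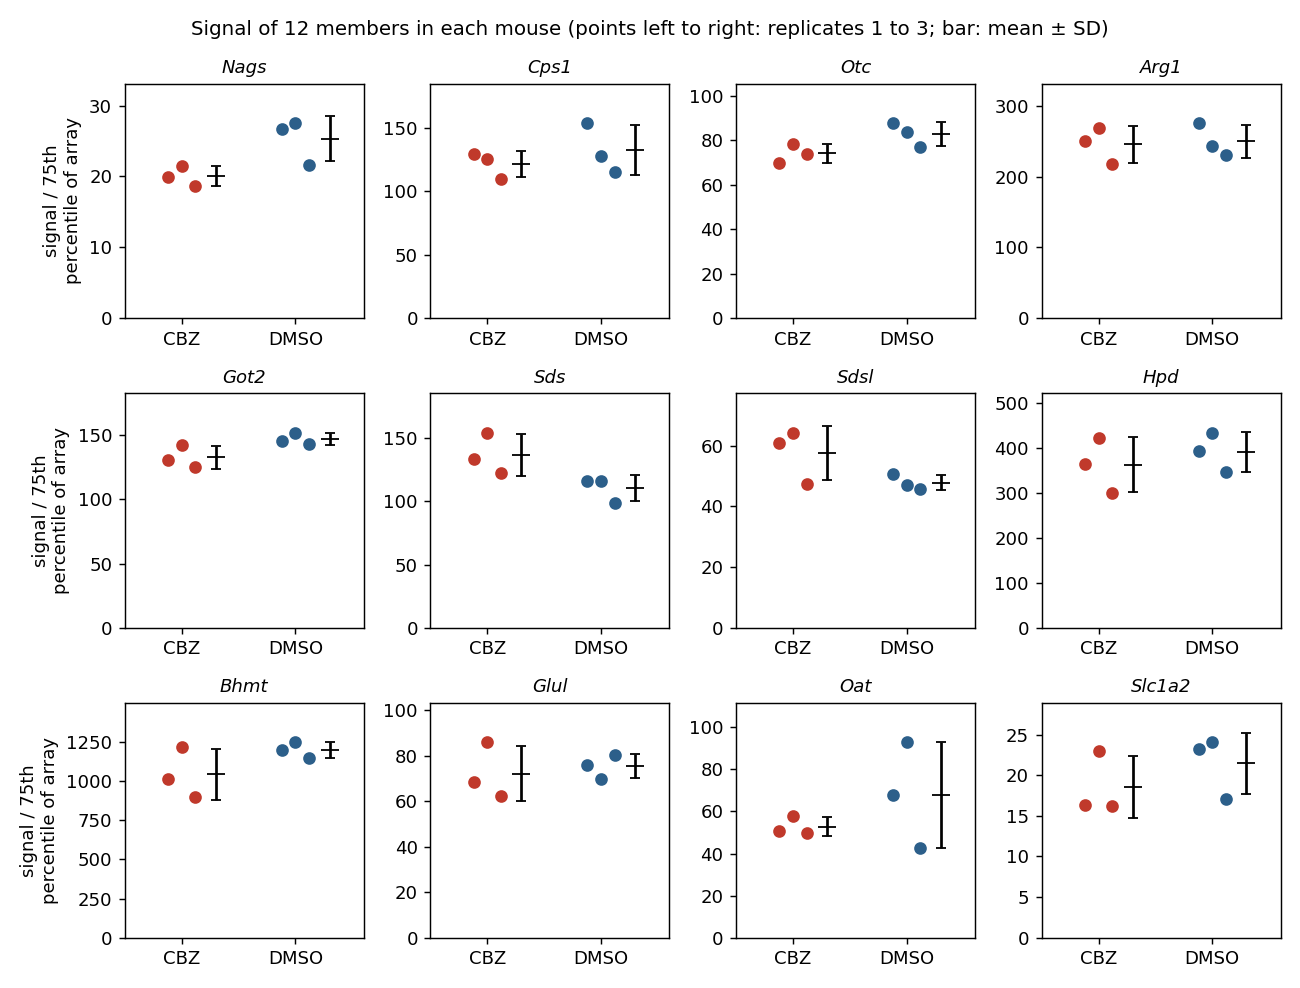
The vertical axis of each panel is the signal, as a multiple of the array's 75th percentile, in each mouse for 12 members, with CBZ mice (red) left of DMSO mice (blue) and the mean ± SD beside them. Nags and Got2 lie lower and Sds higher in all 3 CBZ mice than in the DMSO mice, and the other 9 overlap.

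Genes that move amino groups and release ammonia came next, with 2 of 7 estimates higher, 5 lower and a median of -0.04. Got2, the mitochondrial aspartate aminotransferase, had signals of 131, 142 and 125 in CBZ livers, against 146, 152 and 143 in DMSO livers. The groups did not overlap, by a gap of about 1 unit, and the log2 fold change was -0.15 ± 0.12 (SE, n = 3 per group; adjusted p = 0.86 in limma). Got1, its cytosolic counterpart, had signals of 204, 152 and 148 in CBZ livers, against 180, 197 and 140 in DMSO livers. The highest CBZ mouse lay above all DMSO mice and the lowest DMSO mouse below all CBZ mice, with a log2 fold change of -0.04 ± 0.18.

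Gls2, the liver-type glutaminase that feeds ammonia to the urea cycle, averaged 143 ± 8.77 in CBZ livers and 155 ± 17.2 in DMSO livers (SD, n = 3 each). Its log2 fold change was -0.11 ± 0.14. Gpt, the cytosolic alanine aminotransferase, had signals of 199, 224 and 181 in CBZ livers, against 217, 228 and 216 in DMSO livers, a log2 fold change of -0.14 ± 0.13. Gpt2, its mitochondrial form, averaged 71.1 ± 9.72 in CBZ livers and 70.5 ± 8.02 in DMSO livers, a log2 fold change of 0.01 ± 0.15. The same gene family thus gave estimates on both sides of 0, each smaller than or close to its error.

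Glud1, glutamate dehydrogenase, had among the smallest errors, with signals of 159, 166 and 150 in CBZ livers, against 160, 169 and 157 in DMSO livers. Its brightest probe gave a log2 fold change of -0.03 ± 0.12 and its other probe 0.02 ± 0.13. Agxt, which converts glyoxylate and alanine to glycine and pyruvate, varied more, with signals of 197, 237 and 172 in CBZ livers, against 168, 247 and 186 in DMSO livers. The highest and the lowest mouse of the 6 were both DMSO mice, and the log2 fold change was 0.02 ± 0.19.

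In histidine breakdown, 2 of 4 estimates were higher and 2 lower, with a median of -0.03. Hal, histidine ammonia-lyase, the first enzyme of the route, had signals of 105, 117 and 96.9 in CBZ livers, against 113, 93.1 and 102 in DMSO livers. The groups overlapped, with a log2 fold change of 0.05 ± 0.14 (SE, n = 3 per group). A dimmer probe, designed to an Ensembl transcript of the same gene, gave 10.83, 11.01 and 10.41 in CBZ livers, against 13.32, 11.77 and 12.62 in DMSO livers. That probe separated the groups in the other direction, with a log2 fold change of -0.22 ± 0.12 and an adjusted p of 0.672 in limma, so the direction for Hal rests on the probe chosen.

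Uroc1, urocanase, the next enzyme, averaged 118 ± 2.09 in CBZ livers and 125 ± 6.55 in DMSO livers (SD, n = 3 each). Amdhd1, the imidazolonepropionase that follows it, averaged 30.5 ± 2.93 in CBZ livers and 30.0 ± 3.19 in DMSO livers. Their log2 fold changes were -0.08 ± 0.12 and 0.03 ± 0.14. Ftcd, which passes the last carbon to folate, had signals of 234, 266 and 220 in CBZ livers, against 261, 291 and 269 in DMSO livers. CBZ replicate 2 overlapped the DMSO mice, and the log2 fold change was -0.19 ± 0.13 with an adjusted p of 0.797 in limma.

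The serine, glycine and proline enzymes held the 2 largest positive estimates. Sds, serine dehydratase, which turns serine into pyruvate and is known to follow glucagon and protein feeding in rodents, had signals of 133, 154 and 122 in CBZ livers, against 116.3, 116.1 and 98.9 in DMSO livers. Each CBZ mouse lay above each DMSO mouse. The log2 fold change was 0.30 ± 0.14 (SE, n = 3 per group), with a 95% interval of -0.02 to 0.63 and an adjusted p of 0.587 in limma. Sds was the 1 member of 36 with all CBZ mice above, against 6.26% of all genes, and Nags and Got2 were the 2 with all CBZ mice below, against 6.65% of all genes.

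A dim second probe of Sds, designed to an Ensembl transcript, gave 0.625, 0.724 and 1.26 in CBZ livers, against 0.343, 0.518 and 0.542 in DMSO livers. Its groups were apart in the same direction as the brightest probe, with a log2 fold change of 0.86 ± 0.28, an unadjusted p of 0.0142 and an adjusted p of 0.366 in limma. Sdsl, a serine dehydratase-like gene, had signals of 60.9, 64.3 and 47.5 in CBZ livers, against 50.6, 47.0 and 45.9 in DMSO livers. CBZ replicate 3 lay among the DMSO mice, while the other CBZ mice were above them, and the log2 fold change was 0.26 ± 0.15 with an adjusted p of 0.715 in limma.

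Gldc, the glycine decarboxylase of the glycine cleavage system, had signals of 53.8, 64.2 and 41.7 in CBZ livers, against 58.4, 49.3 and 66.1 in DMSO livers. Prodh, proline dehydrogenase, had signals of 167, 199 and 145 in CBZ livers, against 182, 164 and 180 in DMSO livers. For both genes CBZ replicate 3 was the lowest mouse, the groups overlapped, and the log2 fold changes were -0.13 ± 0.19 and -0.05 ± 0.15 (SE, n = 3 per group).

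Of the tyrosine route 1 of 3 estimates was higher and 2 were lower, with a median of -0.12. Hpd, which forms homogentisate, had signals of 366, 424 and 301 in CBZ livers, against 393, 435 and 346 in DMSO livers, a log2 fold change of -0.12 ± 0.16. Fah, fumarylacetoacetate hydrolase, the last step, had signals of 129, 136 and 109 in CBZ livers, against 148, 147 and 128 in DMSO livers, a log2 fold change of -0.18 ± 0.14. In both genes CBZ replicate 3 was the lowest of the 6 mice and the groups overlapped. Hgd, which opens the ring of homogentisate, had signals of 84.9, 88.9 and 79.5 in CBZ livers, against 101.6, 93.4 and 61.1 in DMSO livers. The CBZ mice all lay inside the DMSO range, with a log2 fold change of 0.02 ± 0.20.

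Methionine and transsulfuration enzymes gave 1 of 5 estimates higher and 4 lower, with a median of -0.11. Mat1a, the liver enzyme that makes S-adenosylmethionine, had signals of 308, 310 and 239 in CBZ livers, against 280, 274 and 229 in DMSO livers, a log2 fold change of 0.13 ± 0.16. Gnmt, which uses S-adenosylmethionine to methylate glycine, averaged 704 ± 52.3 in CBZ livers and 762 ± 79.8 in DMSO livers (SD, n = 3 each), a log2 fold change of -0.11 ± 0.14. These neighbours in the route had estimates on opposite sides of 0, and for each of them the groups overlapped.

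Bhmt, which returns homocysteine to methionine with betaine, had signals of 1015, 1218 and 896.4 in CBZ livers, against 1196, 1247 and 1144 in DMSO livers. CBZ replicate 2 lay among the DMSO mice and the other CBZ mice below them, and the log2 fold change was -0.21 ± 0.15 (SE, n = 3 per group). Its 3 dimmer probes gave -0.22 ± 0.19, -0.08 ± 0.18 and 0.00 ± 0.13. Cbs, which commits homocysteine to cysteine, averaged 267 ± 30.7 in CBZ livers and 292 ± 32.5 in DMSO livers, and Cth, the following lyase, 107.2 ± 8.54 in CBZ livers and 114 ± 14.0 in DMSO livers (SD, n = 3 each). Their log2 fold changes were -0.13 ± 0.15 and -0.09 ± 0.14. The 1 plasma membrane carrier among the 31, Slc7a2, which takes up arginine and other cationic amino acids, averaged 3.74 ± 0.54 in CBZ livers and 3.70 ± 0.39 in DMSO livers, a log2 fold change of 0.01 ± 0.15.

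**Figure D3:**
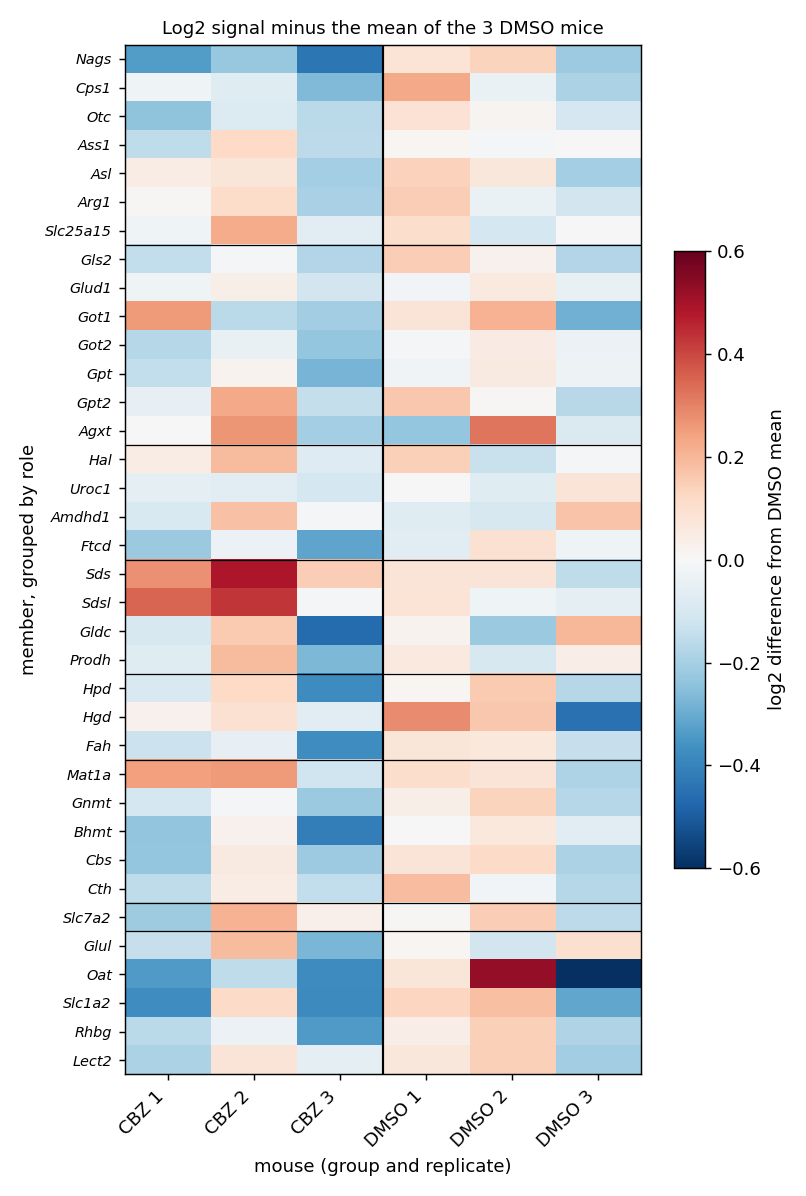
Colour gives the log2 signal of each member (rows, by role) in each mouse (columns, CBZ left of DMSO) minus the mean of the 3 DMSO mice. CBZ replicate 3 and DMSO replicate 3 are blue in most rows, CBZ replicate 2 is mostly red, and Sds is red in all 3 CBZ mice.

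Under the 75th percentile scaling used here, the members varied together from mouse to mouse within each group. Their median relative to the DMSO mean was -0.10, 0.08 and -0.20 (log2) in CBZ mice, against 0.07, 0.06 and -0.15 in DMSO mice. After quantile normalization it was -0.03, -0.04 and -0.09 in CBZ mice, against 0.01, 0.03 and -0.04 in DMSO mice. The size of the shared shifts thus depended on the scaling. The counts that follow are under the 75th percentile. CBZ replicate 3 was the lowest of the 6 mice for 18 of the 36 members and CBZ replicate 2 the highest for 11. DMSO replicate 3 was the lowest for 11 and DMSO replicate 2 the highest for 14. Over all genes CBZ replicate 3 was the lowest mouse for 21.1% and CBZ replicate 2 the highest for 22.3%. DMSO replicate 3 was the lowest for 21.5% of all genes and DMSO replicate 2 the highest for 15.6%. Median signals of the 7 hepatocyte markers relative to the DMSO mean were -0.04, 0.12 and 0.02 (log2) in CBZ replicates 1 to 3, against 0.01, 0.05 and -0.10 in DMSO replicates 1 to 3. The part of hepatocyte content in the members' values was not tested. The SD between mice on the log2 scale had a median of 0.15 in each group for the members, beside 0.16 in CBZ livers and 0.17 in DMSO livers for all genes.

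The pericentral genes were set against the periportal ones to see whether one side of the lobule differed. All 5 pericentral estimates were below 0 and none passed the test, with a median log2 fold change of -0.18. Single mice decided this for Glul, at 0.026 without CBZ replicate 3, and for Lect2, at 0.013 without CBZ replicate 1 and 0.016 without DMSO replicate 2. Glul, glutamine synthetase, had signals of 68.4, 85.9 and 62.2 in CBZ livers, against 75.9, 69.8 and 80.5 in DMSO livers. The highest and the lowest of the 6 mice were both CBZ mice, and the log2 fold change was -0.07 ± 0.15 (SE, n = 3 per group). Oat, ornithine aminotransferase, which in the liver lies beside Glul, had signals of 50.9, 58.0 and 49.6 in CBZ livers, against 67.6, 92.9 and 42.5 in DMSO livers. The DMSO mice differed more among themselves than from the CBZ mice. The log2 fold change of -0.29 ± 0.26 (adjusted p = 0.883 in limma) was -0.02 without DMSO replicate 2 and -0.59 without DMSO replicate 3.

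Slc1a2, a glutamate transporter, had signals of 16.4, 23.0 and 16.3 in CBZ livers, against 23.3, 24.1 and 17.1 in DMSO livers. The groups overlapped through 1 mouse of each, and the log2 fold change was -0.21 ± 0.19. Its dimmest probe gave 0.447, 0.482 and 0.432 in CBZ livers, against 0.622, 0.641 and 0.559 in DMSO livers. That probe separated the groups, with a log2 fold change of -0.42 ± 0.13, an unadjusted p of 0.00957 and an adjusted p of 0.330 in limma, and the remaining probe gave -0.18 ± 0.16. Rhbg, an ammonium transporter, had signals of 12.3, 13.5 and 10.9 in CBZ livers, against 14.2, 15.2 and 12.2 in DMSO livers, a log2 fold change of -0.18 ± 0.15. Lect2, a secreted protein of hepatocytes whose gene responds to Wnt signalling, averaged 114 ± 10.5 in CBZ livers and 118 ± 14.6 in DMSO livers (SD, n = 3 each), a log2 fold change of -0.05 ± 0.15.

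The 8 genes best known as periportal (Cps1, Otc, Ass1, Asl, Arg1, Gls2, Hal and Sds) had a median of -0.05, with 2 higher and 6 lower. The 31 amino acid genes had a median of -0.06. In single mice, the median of the 31 minus that of the 5 pericentral genes was 0.10, -0.0040 and 0.14 (log2) in CBZ livers, against 0.0099, -0.09 and 0.10 in DMSO livers. For the 8 periportal genes the same difference was 0.18, 0.015 and 0.17 in CBZ livers, against 0.071, -0.14 and 0.076 in DMSO livers. Here CBZ replicates 1 and 3 lay above all DMSO mice and CBZ replicate 2 between them. The groups overlapped in both differences. The pericentral median in single mice was -0.19, 0.08 and -0.34 in CBZ livers, against 0.07, 0.14 and -0.21 in DMSO livers. After quantile normalization it was -0.12, -0.04 and -0.25 in CBZ livers, against 0.0090, 0.11 and -0.12 in DMSO livers, and the groups still overlapped.

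**Figure D4:**
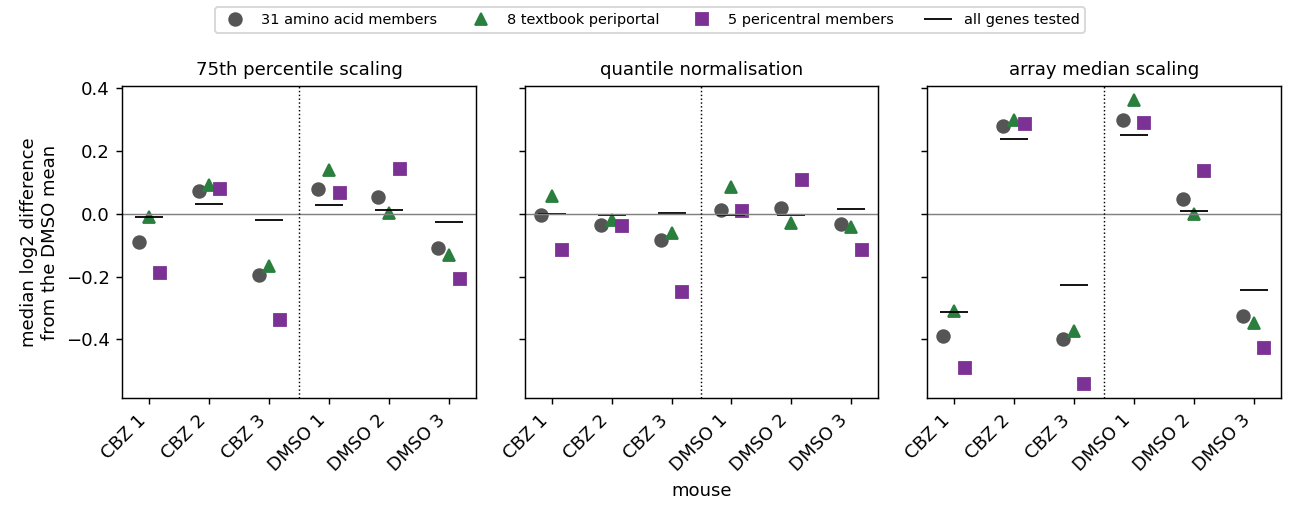
The vertical axis is the median log2 difference from the DMSO mean in each mouse, for the 31 amino acid genes, the 8 textbook periportal genes, the 5 pericentral genes and all genes tested, under 3 scalings. CBZ and DMSO mice overlap for each group of members in each panel, and under array median scaling all genes shift with the members.

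Some zonal genes outside the list had estimates further from 0 than any member, and none passed the test. Tbx3, a transcription factor of pericentral hepatocytes, had signals of 4.15, 4.29 and 3.65 in CBZ livers, against 6.55, 6.73 and 7.48 in DMSO livers (log2 fold change -0.78 ± 0.13 SE, n = 3 per group, adjusted p = 0.0992 in limma). G6pc, the periportal glucose-6-phosphatase of gluconeogenesis, had signals of 313, 320 and 353 in CBZ livers, against 208, 160 and 213 in DMSO livers (0.77 ± 0.15, adjusted p = 0.151 in limma). Rnf43, a pericentral marker and ubiquitin ligase that restrains Wnt signalling, had signals of 1.46, 1.54 and 1.17 in CBZ livers, against 2.32, 2.53 and 2.35 in DMSO livers (-0.80 ± 0.14, adjusted p = 0.126 in limma). In these 3 genes the groups did not overlap, and all 3 passed the threshold under normexp background correction and under an intensity trend with robust eBayes. None of the 3 passed it under quantile normalization, the filter on all 6 arrays or the mean of a gene's probes. Nor did any pass under array median scaling, where limma pooled the variance over all probes. With the replicate block or without a filter none of them passed either. With the slide row in the fit, so in CBZ replicate 1 alone, Tbx3, G6pc and Rnf43 were at -0.73, 0.70 and -0.72. Of the 8 pericentral genes outside the list that were tested, Tbx3 and Rnf43 included, 2 were higher and 6 lower with a median of -0.04, and of the 10 periportal genes outside it, G6pc included, 5 were higher and 5 lower with a median of -0.02. Cyp1a2, another pericentral gene, was at 0.03 ± 0.17, and Pigr, another periportal one, at -0.33 ± 0.15 (adjusted p = 0.543 in limma). All CBZ mice also lay below all DMSO mice for Pigr and for Cyp2f2, a periportal cytochrome P450, at -0.12 ± 0.12. At the dimmer probe of Pigr the groups overlapped, at -0.18 ± 0.20. Counted at brightest probes, groups thus did not overlap for 2 of the 8 pericentral genes, both lower. Of the 10 periportal genes, 1 lay above and 2 below. Over all genes 6.26% lay above and 6.65% below.

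Other genes of amino acid metabolism were read from lists by pathway, and 63 of the 76 listed passed the filter. None had an adjusted p under 0.05 in limma. At an unadjusted p under 0.05, 0 were higher, against 5% of all genes, and 2 were lower, Slc16a10 among them, against 3.97% of all genes. Of the 63 estimates 9 were above 0 and 54 below, with a median log2 fold change of -0.10. All CBZ mice lay above all DMSO mice for 0 of the 63, against 6.26% of all genes, and below them for 5, against 6.65% of all genes, among them Slc16a10, Acad8, Kmo and Prodh2. The 5 of 63, counted at brightest probes, are near the share of all genes. Leaving out 1 mouse moved the count of estimates above 0 to between 5 and 17, and array median scaling gave 5.

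Slc16a10, a carrier of aromatic amino acids, had signals of 3.18, 3.81 and 3.19 in CBZ livers, against 4.39, 4.75 and 4.76 in DMSO livers. Each CBZ mouse lay below each DMSO mouse, and the log2 fold change was -0.45 ± 0.13 (SE, n = 3 per group), with an unadjusted p of 0.00812 and an adjusted p of 0.314 in limma. That value rests on the brightest probe. The dimmer probe of Slc16a10 gave 0.766, 0.893 and 1.12 in CBZ livers, against 0.646, 0.793 and 0.833 in DMSO livers, a log2 fold change of 0.28 ± 0.18, and the mean of both probes was at -0.085. Slc43a1, a carrier of neutral amino acids, had the smallest p among the transporters that were higher, at 0.15 ± 0.15.

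Branched-chain breakdown had 1 of 17 tested genes higher and 16 lower, with a median of -0.12. Acad8, a dehydrogenase of valine breakdown, was at -0.26 ± 0.14 (adjusted p = 0.679 in limma). Aromatic and tryptophan breakdown had 0 of 11 higher and 11 lower, with a median of -0.09, and Kmo, kynurenine 3-monooxygenase, was at -0.15 ± 0.12. The dimmer probe of Kmo was at -0.24 ± 0.15, with groups that overlapped. Glycine, serine and one-carbon genes had 3 of 11 higher, with a median of -0.04 and Dmgdh, which demethylates dimethylglycine, at -0.18 ± 0.15. Phgdh, the first enzyme of serine synthesis, was at 0.36 ± 0.21, and its direction rests on CBZ replicate 1, without which it was at -0.19. Its dimmer probe was at -0.031 ± 0.21. Further methionine and cysteine genes had 0 of 6 higher, with a median of -0.08 and Gclc, of glutathione synthesis, at -0.22 ± 0.17. Gclc was at -0.055 without CBZ replicate 1. It was at -0.56 with the slide row in the fit, where only that mouse stands against the DMSO mice. Lysine, proline and other genes had 3 of 10 higher, with a median of -0.10 and Aass, the first enzyme of lysine breakdown, at 0.07 ± 0.13. Transporters had 2 of 8 higher and a median of -0.08. None of these 6 lists held a gene past the test.

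Of 9 regulators of these enzymes that were tested, 4 were higher and 5 lower. All CBZ mice lay above all DMSO mice for 1 of the 9, against 6.26% of all genes. They lay below for 2, against 6.65% of all genes, and for the other 6 the groups overlapped. Cebpb, a bZIP transcription factor of liver metabolism and the acute phase, had signals of 58.8, 76.8 and 73.3 in CBZ livers, against 49.0, 49.9 and 48.3 in DMSO livers. Each CBZ mouse was above each DMSO mouse, with a log2 fold change of 0.50 ± 0.14 and an adjusted p of 0.304 in limma. With the slide row in the fit, which leaves only CBZ replicate 1 against the DMSO mice, it was at 0.26. Atf4, the transcription factor of the amino acid response, had signals of 77.9, 83.0 and 83.8 in CBZ livers, against 106, 129.3 and 103.5 in DMSO livers. This brightest probe separated the groups the other way, with a log2 fold change of -0.46 ± 0.14 and an adjusted p of 0.317 in limma. A dimmer probe of Atf4 gave 2.637, 2.603 and 2.733 in CBZ livers, against 3.952, 4.798 and 2.671 in DMSO livers. There the groups overlapped, with a log2 fold change of -0.48 ± 0.21. Foxo1, a transcription factor that insulin restrains, also had all CBZ mice below all DMSO mice at its brightest probe, at -0.30 ± 0.14. At its dimmer probe the groups overlapped, at -0.29 ± 0.17. With the slide row, so in CBZ replicate 1 alone against the DMSO mice, Foxo1 was at -0.15 and Atf4 at -0.53.

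Promoters were read for the 25 members found in the RefSeq promoter table (build GRCm38.p6), 26 promoters in all, over the 250 bases before the start of the gene on either strand. The C/EBP letters TTNNGNAAT were in 3 of the 26, those of Gpt2, Hal and Slc1a2 (11.5%), and in 10.2% of all 32851 promoters in the table. The TATA letters TATAAA were in 4 of the 26, those of Ftcd, Got2, Hal and Hgd (15.4%), against 12.4% of all. The cAMP response half-site TGACG was in 1, that of Ftcd (3.85% against 17.8% of all), the glucocorticoid half-site AGAACA in 1, that of Agxt (3.85% against 16.1%), and the HNF4 letters CAAAGTCCA in 0 (0.384% of all). The Hal promoter is shown because it held 3 C/EBP matches, and a link between Cebpb and Hal was not tested. It lies at chr10:93488518-93488767 on the plus strand, and capitals mark, in order, a C/EBP match, a pair of C/EBP matches that overlap on opposite strands, and a TATA match on the minus strand. A match is only a match of letters.
Hal promoter: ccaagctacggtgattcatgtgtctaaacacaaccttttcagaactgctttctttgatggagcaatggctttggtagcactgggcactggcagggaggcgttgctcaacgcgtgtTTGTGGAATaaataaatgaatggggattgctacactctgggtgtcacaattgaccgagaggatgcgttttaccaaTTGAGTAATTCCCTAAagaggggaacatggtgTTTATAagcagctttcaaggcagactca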

How the data were processed

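Each mouse's whole-liver RNA was measured on 1 single-colour array. Per the file headers, the scans were read with Feature Extraction 10.7.3.1 from Agilent, and the deposited processed intensity is already background-subtracted and linear. The authors' deposited table holds a ratio, the processed intensity over the array's median, since dividing by that median gave it back.

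Here the log2 intensity was computed from the deposited values minus the array's 75th percentile, leaving out control and outlier-marked spots and averaging the spots of 1 probe. A probe entered the fit where either group had it well above background on its 3 arrays (22352 of 55681 probes), and a gene is its brightest probe. Probes were named through a RefSeq gene table (GRCm38.p6) by accession (27428), symbol (3483) or synonym (507), and 24263 kept the file's name. Coordinates are those of the array design. The test of CBZ against DMSO was limma's (version 3.58.1, R 4.3.3; lmFit, then eBayes), two-sided and without covariates, at an adjusted p of 0.05 over these probes. The SE and 95% intervals are limma's moderated ones. A p-value sets the difference between groups against the spread between 3 mice per group, moderated over the probes in the fit. The fit was also run on simulated data whose errors were independent between probes. Such data lack the shifts that genes share within a mouse, and no result here rests on that run. All arrays lay on 1 slide, with the 3 DMSO arrays and CBZ replicate 1 in row 1 and CBZ replicates 2 and 3 in row 2.

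The members, the gene lists and the tests were chosen with earlier results of these data known. All members are named. From each pathway, zonal and regulator list the gene with the smallest unadjusted p in each direction is named, the genes whose groups did not overlap were added after their values were seen, and of the cell type lists only counts and medians are given. For 2 genes that this rule takes, the values are not reported here. Of 7 hepatocyte markers 4 were higher and 3 lower. The median log2 fold changes were 0.02 for these, 0.13 for 8 Kupffer cell, 0.02 for 6 endothelial and 0.22 for 6 stellate cell markers. They were 0.31 for 3 cholangiocyte, 0.02 for 4 T and NK cell, 0.17 for 2 B cell, 0.08 for 3 neutrophil and -0.28 for 2 erythroid markers. Of 4 listed pancreatic markers only 1 passed the filter, at -0.0095. Estimates were higher for 6 of the Kupffer cell, 4 of the endothelial, 5 of the stellate cell and 2 of the cholangiocyte markers. They were higher for 3 of the T and NK cell, 2 of the B cell, 2 of the neutrophil and 0 of the erythroid markers. The rest were lower, and none of these genes passed the test.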

Additional observations from a re-analysis of the deposited data

How the results depend on the processing

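None of the 36 members, and none of the other pathway genes, passed an adjusted p of 0.05 in limma under any alternative run. Same-numbered mice were not treated as pairs. Their deviations correlated at -0.24, 0.02 and 0.20, and those of mice with unlike numbers at -0.37 to 0.39. With 3 mice per group this cannot settle whether the numbers carry a pairing. With the replicate number as a block 7 genes were called, against 9 without it. With the slide row in the fit, an estimate is CBZ replicate 1 alone against the DMSO mice. Row 2 held only CBZ arrays, so the row cannot be told apart from the treatment there. These estimates were -0.34 for Nags and 0.27 for Sds, and 8 members were higher and 28 lower. The number of genes called overall was 103 with normexp background correction and 4 with quantile normalization. Array median scaling and the authors' table (the same values) gave 89. There limma pooled the variance over all probes, with 89408 total degrees of freedom against 8.62 in the main run. These p-values do not weigh a gene against its own spread, so the 89 is not comparable with the other counts. The number called was 30 with a filter on all 6 arrays, 134 with an intensity trend and robust eBayes, and 42 at an adjusted p under 0.10. The 75th percentile of detected spots (chosen after seeing the data) gave 3, and the run without a filter gave 0. Without a filter an unadjusted p under 0.05 was reached by 1058 higher and 542 lower genes. Leaving out 1 mouse gave 0 to 21 genes, namely 21 with CBZ replicate 1 left out, 1 with CBZ replicate 3 out, 1 with DMSO replicate 1 out and 3 with DMSO replicate 2 out. Without CBZ replicate 2, where 0 were called, 855 higher and 752 lower genes had an unadjusted p under 0.05. Without DMSO replicate 3, also at 0 calls, these were 1065 and 972. The causes were not tested.

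The medians of the 31 amino acid, 5 pericentral and 8 periportal genes moved by less than the spread between mice, with ranges over single mice left out of -0.15 to 0.0037, -0.27 to -0.0975 and -0.12 to 0.02. Some estimates changed sign, none of them a call, and the furthest from 0 of these was Phgdh, at 0.36 in the report. Array median scaling shifted all genes to a median of -0.10 and the 31 to -0.16, with 3 members higher and 33 lower, and it and the authors' table gave Slc25a15 -0.057, Gpt2 -0.088, Agxt -0.080, Hal -0.046, Amdhd1 -0.073, Hgd -0.082, Slc7a2 -0.090, Aass -0.028 and Cyp1a2 -0.069. Normexp gave Glud1 0.016, Slc7a2 -0.0012 and Phgdh -0.022, quantile normalization Arg1 0.0085, the filter on all 6 arrays Phgdh -0.031, the mean of a gene's probes Hal -0.085, and the detected-spot percentile Arg1 0.00090. The slide row gave Asl 0.043, Arg1 0.0080, Slc25a15 -0.027, Got1 0.26, Gpt2 -0.051, Agxt -0.0017, Amdhd1 -0.089, Slc7a2 -0.21 and Cyp1a2 -0.22. Over single mice left out, the range was -0.16 to 0.016 for Lect2, -0.19 to 0.57 for Phgdh, -0.047 to 0.097 for Slc25a15, -0.18 to 0.067 for Got1, -0.097 to 0.092 for Gpt2, -0.10 to 0.18 for Agxt, -0.015 to 0.12 for Hal, -0.049 to 0.11 for Amdhd1, -0.21 to 0.16 for Hgd, -0.091 to 0.12 for Slc7a2, -0.077 to 0.16 for Cyp1a2, -0.13 to 0.059 for Asl, -0.093 to 0.060 for Arg1, -0.069 to 0.0037 for Glud1, -0.28 to 0.031 for Gldc, -0.17 to 0.059 for Prodh, -0.23 to 0.014 for Hpd, -0.21 to 0.026 for Glul and -0.17 to 0.0067 for Cth. Tbx3, G6pc and Rnf43 had adjusted p-values of 0.0087, 0.013 and 0.025 in limma with normexp, and 0.0033, 0.0018 and 0.0093 with the trend and robust eBayes. With quantile normalization these were 0.145, 0.199 and 0.145 in limma. With array median scaling, where limma pooled the variance over all probes, they were 0.197, 0.738 and 0.172. With the slide row, so in CBZ replicate 1 alone, Acad8 was at -0.44 and Phgdh at 0.82, and normexp put Acad8 at -0.13.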
